A study of Mus musculus with 24 samples.

Results

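Ephrins and Eph receptors are cell surface ligands and receptor tyrosine kinases, and 10 of their genes were followed across 8 groups of mouse endothelial and amniotic cells. The members were taken as a named list, 4 ephrins (Efna1, Efna5, Efnb1 and Efnb2) and 6 receptors (Epha2, Epha3, Epha4, Ephb2, Ephb3 and Ephb4), out of 22282 genes in the tables. Of the 10, 9 had a mean of at least 1 FPKM (fragments per kilobase of transcript and per size of library, so a level per transcript length) over all libraries and were tested among 14964 genes. Epha3 fell below that minimum and is given as values only.

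All cells were C57BL/6J, and each group had 3 RNA-seq libraries. MACs were amniotic fluid cells taken at E11.5 to E13.5, and Akt-MACs were the same kind of cell given myristoylated, constitutively active Akt by lentivirus. RACVECs were MACs transduced with lentiviruses for the mouse Ets factors Etv2, Erg and Fli1 and, by the study's methods, grown for conversion in an endothelial medium with VEGF-A and the TGF-beta receptor inhibitor SB431542 on fibronectin, whereas amniotic cells were kept in AmnioMAX. Akt-RACVECs carried the Ets factors and Akt, and Sox17-RACVECs carried the Ets factors and mouse Sox17, with no Akt named in the label. By the study's methods, Sox17 was in another lentiviral vector (Lv203) and the Sox17-RACVECs were selected with puromycin. Akt-LECs and Akt-liver ECs were lung and liver endothelial cells (ECs) that were grown in culture with the same active Akt, so no cultured adult group lacked it. LSECs were liver endothelial cells sorted straight from the animal, with no culture and no vector. The Ets and Akt genes were driven by a PGK promoter, and amniotic fluid of different embryos was mixed.

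Ephrins are tethered to the cell membrane, A ephrins by a lipid anchor and B ephrins by a transmembrane segment, so signals pass between touching cells and in both directions. A receptors mostly bind A ephrins and B receptors mostly bind B ephrins. In blood vessels ephrin-B2 marks arteries and EphB4, its receptor, marks veins, and mice that lack either gene fail to remodel the embryonic vasculature. EphrinA1 and EphA2 are another pair of the vessel wall, and EphB2 and EphB3 are known for cell sorting and boundary formation in epithelia and the nervous system.

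The introduced genes and marker genes were checked in every library. Etv2 ranged in the RACVEC and Akt-RACVEC libraries from 127 to 859.9 FPKM. It was listed at 0 in 1 of the 3 Sox17-RACVEC libraries, replicate 2, and at 458 and 378 FPKM in the other two. Across the 11699 genes with a mean of at least 10 FPKM, that library had a correlation of 0.959 with Akt-RACVEC 3, against 0.804 and 0.798 with the other Sox17-RACVEC libraries. It is therefore called the library labelled Sox17-RACVEC 2, and results that rest on it are given with and without it. Erg was at 0.90 to 13.8 FPKM in the RACVECs although an Erg vector is named for them, and at 395 to 1002 FPKM in the Akt-RACVECs. In the Sox17-RACVECs Erg was at 4.49, 387 and 0 FPKM, with the high value in the library labelled Sox17-RACVEC 2. Sox17 was at 5.09, 40.1 and 200.1 FPKM in the Sox17-RACVECs and at 0 in every RACVEC library. Akt1 was at 884 to 1323 FPKM in the Sox17-RACVECs, against 607 to 694 in the RACVECs and 872 to 1281 in the Akt-RACVECs. Akt-liver ECs had 892, 559 and 656 FPKM of Akt1, with replicates 2 and 3 in the MAC range of 551 to 692. Akt-LECs had 798 to 1266. The 9 endothelial markers summed to 26.1 to 132 FPKM in MACs, 2014 to 3685 in RACVECs and 12326 to 20196 in Akt-RACVECs.

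Markers of other cells also moved between libraries. The 8 mesenchymal markers (such as Col1a1 and Pdgfra) summed to 2219 to 10144 FPKM in the MAC, Akt-MAC and RACVEC libraries and to 6.04 to 400 in the Akt-RACVECs. They summed to 3820 in Akt-LEC 1, against 36.1 and 115 in the other Akt-LECs, and to 2536 in Akt-liver EC 1, against 176 and 439. In the Sox17-RACVECs they summed to 1191, 11.9 and 2329. Hepatocyte markers summed to 3671 to 18576 FPKM in the LSECs and to at most 91.7 in every other group. The 6 measured macrophage and blood markers summed to 14851 to 17769 in the LSECs and to 782, 8066 and 26768 in the Akt-MACs. They summed to 1326 in Akt-LEC 1, against 1.41 and 19.7 in the other Akt-LECs. In Akt-liver EC 1 they summed to 869, against 2.94 and 1.07. Epithelial markers summed to 1469 FPKM in Akt-liver EC 1 and to at most 171 elsewhere. In bulk RNA, fewer cells of a type and less RNA per cell cannot be told apart.

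Because the Ets factors bind sites with a GGAA core, the promoters of the arterial ligand, its venous receptor and the receptor that fell most on conversion were read for those letters. Each window below is the 250 bases before a RefSeq gene start, placed on mm9 by an exact match and written 5′ to 3′ along the gene's strand. Capitals mark GGAA or its reverse complement TTCC.
Efnb2, chr8:8661243-8661492, minus strand: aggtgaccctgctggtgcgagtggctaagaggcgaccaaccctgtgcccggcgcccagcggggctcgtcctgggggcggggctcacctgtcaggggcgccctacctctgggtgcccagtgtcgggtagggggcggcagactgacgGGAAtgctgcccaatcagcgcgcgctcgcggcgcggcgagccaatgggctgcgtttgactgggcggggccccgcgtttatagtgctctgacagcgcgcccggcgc
Ephb4, chr5:137791087-137791336, plus strand: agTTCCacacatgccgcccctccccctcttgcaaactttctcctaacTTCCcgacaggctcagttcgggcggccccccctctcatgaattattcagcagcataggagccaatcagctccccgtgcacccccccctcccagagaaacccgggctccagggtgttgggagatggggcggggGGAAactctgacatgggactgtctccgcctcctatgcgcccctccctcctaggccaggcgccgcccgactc
Ephb2, chr4:136391928-136392177, minus strand: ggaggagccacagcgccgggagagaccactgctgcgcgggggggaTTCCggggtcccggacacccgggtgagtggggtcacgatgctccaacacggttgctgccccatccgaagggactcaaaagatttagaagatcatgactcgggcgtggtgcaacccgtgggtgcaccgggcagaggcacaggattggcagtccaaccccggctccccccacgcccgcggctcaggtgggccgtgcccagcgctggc

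The Ephb4 window held 3 matches to GGAA on either strand, and the Efnb2 and Ephb2 windows held 1 each. Of 32841 mouse promoter windows of the same length, 93.5% held at least 1 match, with a median of 3. The Sox core letters ATTGT, read on both strands, were absent from all 3 windows and present in 27.7% of promoters. These matches describe the letters of the windows and are not evidence of binding.

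Efna1, the A ephrin best known in endothelium (chromosome 3, 89075655 to 89085064 of mm9), had the highest correlation with the summed endothelial markers of any member over the 24 libraries (0.888). It was at 28.4, 4.37 and 10.8 FPKM in the 3 MAC libraries and at 4.79, 7.2 and 5.29 in the Akt-MACs. RACVECs had 23.3, 149 and 21.5 FPKM, and Akt-RACVECs had 140.0, 177 and 122. One RACVEC library thus reached the Akt-RACVEC range while the other two lay below the highest MAC. Sox17-RACVECs had 113, 384 and 73.2 FPKM, with the highest value in the library labelled Sox17-RACVEC 2. Cultured lung and liver cells were at 73.2, 131 and 133 FPKM and 74.4, 276 and 122 FPKM, respectively. The LSECs, at 482, 437 and 587 FPKM (502 ± 76.7; SD, n = 3), stood above every other library. In the order of mean log2 levels (LSEC, Sox17-RACVEC, Akt-RACVEC, Akt-liver EC, Akt-LEC, RACVEC, MAC, Akt-MAC), no neighbours differed at an adjusted p under 0.05 by limma, and only LSECs did not overlap the group after them. Of the 2 RefSeq transcripts of Efna1, NM_010107 carried 99.8% of its FPKM.

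Efna5, an A ephrin studied mostly as a repulsive guidance cue (chromosome 17, 62953533 to 63230666 of mm9), had its highest mean in RACVECs. Its levels were 68.3, 30.7 and 52.4 FPKM in MACs, 41.6, 106 and 33.3 in Akt-MACs and 64.7, 87.3 and 74.7 in RACVECs. Akt-RACVECs had 15.8, 12.3 and 12.4 FPKM, all below the lowest RACVEC library. Sox17-RACVECs had 44.5, 10.1 and 45.8 FPKM, and the low value again belonged to the library labelled Sox17-RACVEC 2. Akt-LECs were at 37.4, 8.24 and 35.9 FPKM and Akt-liver ECs at 15.2, 21.8 and 10.02. In the LSECs Efna5 was at 0, 0.93 and 0.64 FPKM, the lowest group, and the step to the next group, Akt-RACVECs, was the only neighbouring one that passed the test (adjusted p = 0.000284 by limma).

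Efnb1, a transmembrane ephrin that binds several B receptors (X chromosome, 96331469 to 96344330 of mm9), was highest in the LSECs, at 283, 324 and 365 FPKM. MACs had 109, 58.5 and 97.9 FPKM and Akt-MACs 72.7, 69.4 and 166. In RACVECs it was at 22.1, 19.4 and 28.97 FPKM, below every MAC library. The other engineered and cultured groups spanned 8.06 to 107.7 FPKM, with single libraries far from the rest: Akt-RACVECs had 21.6, 14.7 and 108 FPKM and Sox17-RACVECs 14.3, 50.2 and 8.06. The step from LSECs to the next group, Akt-MACs, was 1.76 on the log2 scale and passed the test (adjusted p = 0.0444 by limma). Akt-LECs were at 48.7, 21.6 and 14.7 FPKM and Akt-liver ECs at 61.1, 34.4 and 22.7.

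Efnb2, the arterial ligand of EphB4 (chromosome 8, 8617434 to 8661239 of mm9), was expressed in every group. Its levels were 101, 39.1 and 168 FPKM in MACs, 85.6, 73.8 and 104 in Akt-MACs and 63.1, 55.8 and 51.6 in RACVECs. The Akt-RACVEC libraries disagreed among themselves, at 14.8, 164 and 1.5 FPKM. Sox17-RACVECs had 21.01, 14.3 and 94.7 FPKM, Akt-LECs 126, 123 and 194 and Akt-liver ECs 161, 72.5 and 25.7. LSECs were tight, at 122, 122 and 129.6 FPKM. No neighbouring groups in the order of Efnb2 levels differed beyond their spread, and 1 of the 28 pairs of groups was called, Akt-RACVECs against LSECs (adjusted p = 0.0431 by limma), a pair for which 27.3% of all genes were called. The libraries of that pair overlapped, with Akt-RACVEC 2 above every LSEC.

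**Figure D1:**
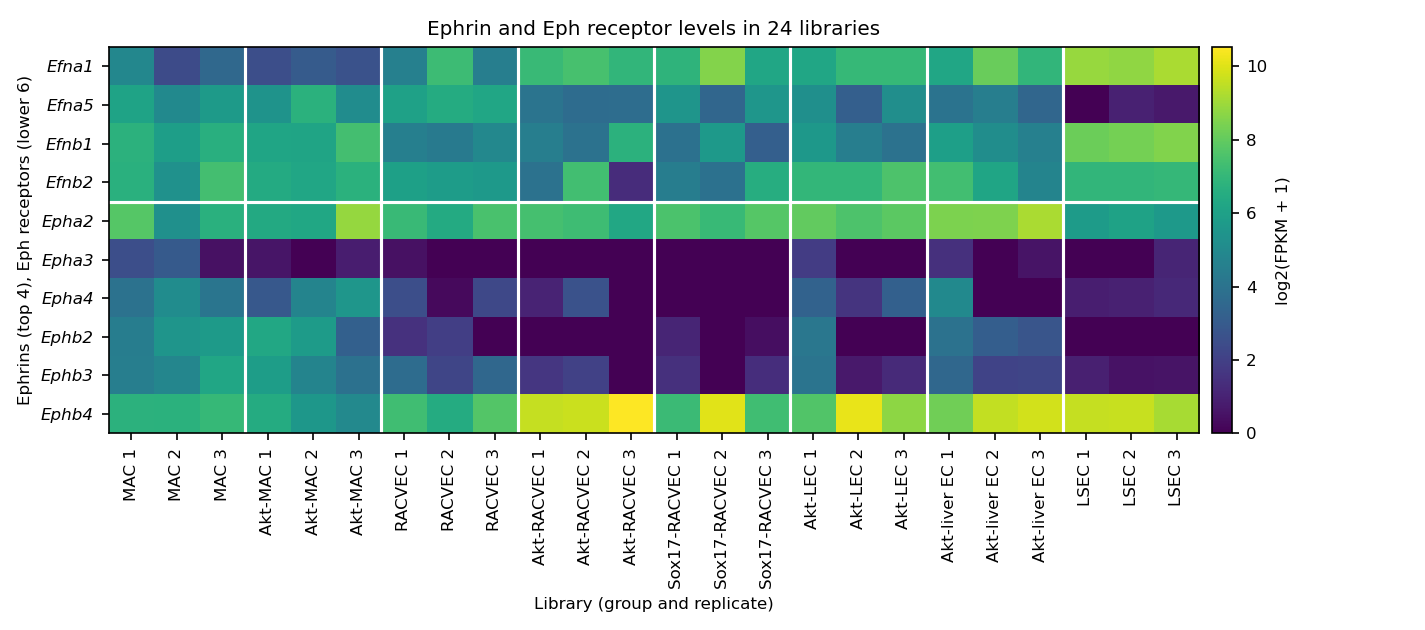
Level of each of the 10 genes (rows) in each of the 24 libraries (columns, by group and replicate), with colour giving log2(FPKM + 1). Efna1 and Ephb4 are bright from the Akt-RACVECs to the LSECs, with Sox17-RACVEC 1 and 3 dimmer for Ephb4 (143 and 157 FPKM) than replicate 2 (1054 FPKM). Ephb2, Ephb3 and Epha4 are brightest in the MAC and Akt-MAC libraries, and Akt-LEC 1 is brighter for Ephb2 and Ephb3 than the other Akt-LECs.

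Epha2, a receptor of ephrinA1 (chromosome 4, 140857155 to 140885299 of mm9), had the highest mean FPKM of the Eph receptors in MACs and Akt-MACs. In MACs this lead came through 1 library, MAC 1. In Akt-MACs Epha2 led in replicates 2 and 3 and was below Ephb4 (89.4 FPKM) in replicate 1. Epha2 was at 215, 37.9 and 102 FPKM in MACs, 84.4, 75.9 and 467 in Akt-MACs and 140.3, 86.7 and 181 in RACVECs. Ephb4 was above Epha2 in MAC 2 and MAC 3, and its mean share of the receptor FPKM in MACs (26.3%) was above that of Epha2 (23.6%). Akt-RACVECs had 172, 151 and 78.6 FPKM and Sox17-RACVECs 184, 136 and 215. Akt-LECs, at 252, 194 and 235 FPKM, lay below all Akt-liver ECs, at 351, 363 and 587. LSECs were the lowest group by mean, at 54.6, 65.5 and 49.99 FPKM, and overlapped the lowest MAC library.

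Epha4, a receptor that binds both ephrin classes (chromosome 1, 77363760 to 77511663 of mm9), had its highest means in Akt-MACs and MACs. It was at 14.7, 33.5 and 15.8 FPKM in MACs and 6.39, 26.2 and 45.1 in Akt-MACs. RACVECs had 4.85, 0.22 and 3.82 FPKM, Akt-RACVECs 1.04, 5.37 and 0, and all Sox17-RACVEC libraries were listed at 0. LSECs had 0.83, 0.94 and 1.3 FPKM and Akt-LECs 9.01, 1.98 and 8.37. Among the Akt-liver ECs it was at 30.7 FPKM in replicate 1 and listed at 0 in the other two. Epha3, a related receptor (chromosome 16, 63543364 to 63863984 of mm9), was highest in MACs, at 4.72, 6.91 and 0.37 FPKM, and listed at 0 in 14 of the 24 libraries.

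Ephb2 (chromosome 4, 136203454 to 136391903 of mm9) and Ephb3 (chromosome 16, 21204828 to 21223378 of mm9), receptors of the B ephrins, shared a pattern. Ephb2 was at 21.2, 44.1 and 52.8 FPKM in MACs and 79.05, 54.1 and 8.31 in Akt-MACs, and at 1.83, 2.86 and 0 in RACVECs. It was listed at 0 in all Akt-RACVEC and all LSEC libraries and did not exceed 1.12 FPKM in Sox17-RACVECs. Akt-LEC 1 had 17.2 FPKM and the other Akt-LECs were at 0, while Akt-liver ECs had 14.7, 7.88 and 5.88 FPKM. Ephb3 was at 21.97, 27.8 and 75.2 FPKM in MACs, 57.3, 25.97 and 14.2 in Akt-MACs and 12.02, 3.56 and 10.6 in RACVECs. Akt-RACVECs had 2.16, 3.1 and 0 FPKM, Sox17-RACVECs 1.77, 0 and 1.61 and LSECs 0.89, 0.41 and 0.49. For Ephb3, too, the first Akt-LEC library (15.4 FPKM against 0.65 and 1.40) and the first Akt-liver EC library (10.4 against 3.32 and 3.64) were above their replicates.

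Ephb4, the venous receptor of ephrin-B2 (chromosome 5, 137791337 to 137819897 of mm9), had the highest mean of the receptors in the converted and adult endothelial groups. It was above Epha2 in every RACVEC, Akt-RACVEC and LSEC library and below it in Akt-LEC 1, Akt-liver EC 1 and Sox17-RACVEC 1 and 3, so in the Sox17-RACVECs its lead rested on the library labelled Sox17-RACVEC 2 and ended without it. It was at 109, 105 and 131 FPKM in MACs and lower in every Akt-MAC library, at 89.4, 46.4 and 29.7. RACVECs had 157, 89.3 and 209 FPKM, overlapping the MACs. Akt-RACVECs had 770.1, 829 and 1478 FPKM, all above the highest RACVEC. Sox17-RACVECs had 143, 1054 and 157 FPKM: the library labelled Sox17-RACVEC 2 lay in the Akt-RACVEC range and the other two in the RACVEC range. Akt-LECs were at 201, 1158 and 427 FPKM, Akt-liver ECs at 307, 752 and 890.0 and LSECs at 770.2, 791 and 567. The lowest Akt-LEC and the lowest Akt-liver EC were the replicates with the high mesenchymal sums. These libraries also had the highest macrophage and blood sums and the highest epithelial sums of their groups. The part of each was not tested. Of its 2 RefSeq transcripts, NM_010144 carried 88.5% of the FPKM.

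**Figure D2:**
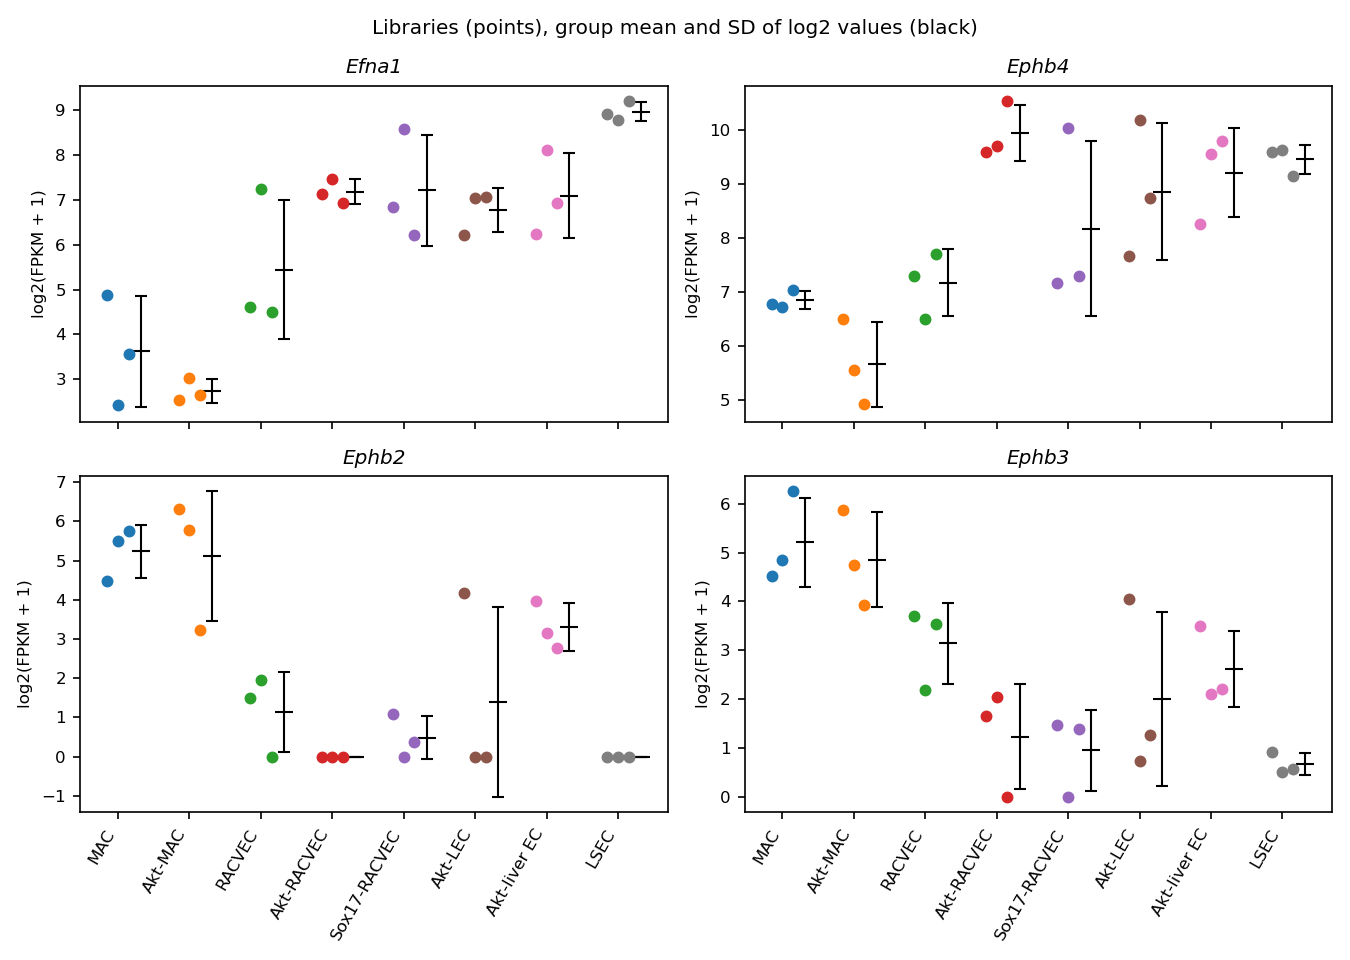
Level of Efna1, Ephb4, Ephb2 and Ephb3, as log2(FPKM + 1), in the 3 libraries of each group (coloured points) with the group mean and SD of the log2 values (black). Efna1 is highest in the LSECs, where Ephb2 is listed at 0, while in RACVECs Ephb2 is at most 2.86 FPKM and Ephb4 overlaps the MACs. The Sox17-RACVEC point that sits with the Akt-RACVECs for Ephb4, at 1054 FPKM, is replicate 2.

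The makeup of each class changed between groups. Of the summed FPKM of all measured Eph receptors, Ephb4 made up 26.3% ± 6.85 in MACs, 45.96% ± 3.35 in RACVECs and 84.6% ± 8.9 in Akt-RACVECs (SD, n = 3). It made up 91.8% ± 0.929 in LSECs. For cultured adult cells the Ephb4 share was lower than in Akt-RACVECs by mean, at 57.8% ± 20.1 (lung) and 51.3% ± 8.46 (liver). Sox17-RACVECs had 57.4% ± 26.9, with a wide spread, and Akt-MACs had 13.8% ± 7.91. Among the ephrins of the LSECs, Efna1 and Efnb1 took 52.6% ± 2.77 and 34.1% ± 2.37. In MACs no ephrin held more than 23.5% on average, and the leading ephrins were Efnb2, Efnb1 and Efna4.

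The first comparison was of converted with unconverted amniotic cells. The Ets factors and the endothelial medium with VEGF-A and SB431542 came together in RACVECs, so they cannot be told apart. In RACVECs against MACs, Ephb2 fell, with a log2 fold change of -4.09 (SE 0.91, adjusted p = 0.0176 by limma). It was the 1 called member of 9 tested, where a call needs an adjusted p under 0.05 and a log2 fold change past 1 or -1, and 2.71% of all genes were called. Efnb1, Epha4 and Ephb3 were also lower in every RACVEC than in every MAC library but did not pass, at -1.84, -2.68 and -2.07 (adjusted p = 0.134, 0.171 and 0.161 by limma). With Ephb2 these made 4 of 9 members without overlap, all lower, beside 10.5% of all genes without overlap in that direction. Efna1 had a log2 fold change of 1.82 (SE 0.70), which did not pass (adjusted p = 0.163 by limma). The Ephb2 call was lost without MAC 3 (adjusted p = 0.0665) or without RACVEC 3 (adjusted p = 0.0970 by limma). It was also lost with only these groups in the fit (adjusted p = 0.116) and with a pseudocount of 0.1 (adjusted p = 0.0715 by limma). The mesenchymal markers overlapped between these groups.

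Other genes of the family were also lower in RACVECs. Of the other 12 ephrin and Eph genes, 9 were tested and 3 were called, beside 2.71% of all genes. All were lower in RACVECs: Epha7 (log2 fold change -3.21), Efnb3 (-1.87) and Efna4 (-1.65). The median over the 9 was -2.09, beside 0.00 over all genes. Of 33 tested signalling partners of the receptors, 1 was called, beside the same 2.71% of all genes. Arhgef15, an endothelial exchange factor known to act with Eph receptors, was higher in RACVECs, with a log2 fold change of 4.28 (adjusted p = 0.000803 by limma). Among the arterial genes Notch4 was called higher (4.66), 1 of 11 tested. On a list of venous and lymphatic genes Flt4 was called higher (4.50), 1 of 8. That list shares Emcn and Tek with the endothelial markers, so it is not a measure of venous identity alone.

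The second comparison asked what Akt added to converted cells. In Akt-RACVECs against RACVECs, Ephb4 had a log2 fold change of 2.77 (SE 0.68) and Efna5 of -2.40 (SE 0.59). Both groups were apart in every library, and neither call was made with all libraries in the fit (adjusted p = 0.0643 for each by limma). No member was called there, beside 0.261% of all genes, while 4 of 9 members had an unadjusted p under 0.05, beside 15.9% of all genes. All 8 groups share 1 estimate of the spread. With the library labelled Sox17-RACVEC 2 left out of the fit, a setting chosen after the data were seen, both were called: Ephb4 at an adjusted p = 0.0126 and Efna5 at an adjusted p = 0.0187 by limma. The share of all genes called then rose from 0.261% to 2.45%. Ephb3 was lower in every Akt-RACVEC library too, without passing, so that 3 of 9 members had groups that did not overlap, beside 19.8% of all genes. Efna1 had a log2 fold change of 1.74 (SE 0.70, adjusted p = 0.232 by limma). Efnb2 had -1.63 (SE 1.01, adjusted p = 0.449 by limma), and without Akt-RACVEC 2 or 3 that value ranged from -3.19 to -0.17. All 8 mesenchymal markers were lower in Akt-RACVECs, with a median log2 fold change of -5.53, and their part in these differences was not tested.

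None of the other 9 tested ephrin and Eph genes was called in this comparison, at a median of -0.26, beside 0.00 over all genes. Of the 33 tested signalling partners 1 was called, beside 0.261% of all genes. That was Rgs3, a regulator of G protein signalling that binds B ephrins, which rose by 3.93 on the log2 scale. On the venous and lymphatic list Lyve1 (6.58) and Emcn (4.91) were called higher, and of the arterial genes Sox17, which was listed at 0 in the RACVECs.

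Akt was also tested without the Ets factors. In Akt-MACs against MACs no member was called, beside 2.81% of all genes, and no member had an unadjusted p under 0.05, beside 14.0% of all genes. Ephb4 was lower in every Akt-MAC library, with a log2 fold change of -1.18 (SE 0.68, adjusted p = 0.489 by limma), and it was the only 1 of 9 members without overlap, beside 4.19% of all genes that were lower without overlap. In this comparison a median scaling of the libraries shifts all genes by 0.14 on the log2 scale. The macrophage and blood markers summed to at most 14.7 FPKM in MACs and to 782 to 26768 in Akt-MACs, where Ephb4 was lowest in the library with the highest sum, and their part was not tested. Of the other family genes Efnb3 was called lower, 1 of 9 tested (-1.99). The difference between the Akt effect in RACVECs and the Akt effect in MACs was 3.95 on the log2 scale for Ephb4 (SE 0.96, adjusted p = 0.102 by limma). With the library labelled Sox17-RACVEC 2 left out of the fit the adjusted p was 0.0262, and without Akt-MAC 1 it was 0.0211 by limma. The share of all genes called for this difference then rose to 0.368% and 2.94%, respectively. Akt-MAC 1 was the Akt-MAC library with the lowest macrophage and blood sum (782 FPKM) and the highest Ephb4 (89.4 FPKM). For Efna1 the same difference was 2.62 (SE 1.00, adjusted p = 0.278 by limma). No member was called for this difference with all libraries, beside 0.1% of all genes, and 3 of 9 had an unadjusted p under 0.05, beside 12.1% of all genes.

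Converted and unconverted cells that both carried Akt were compared as Akt-RACVECs against Akt-MACs, and here 6 of 9 members were called, beside 19.5% of all genes. Efna1 rose by 4.44 on the log2 scale (SE 0.70) and Ephb4 by 4.27 (SE 0.68), both with an adjusted p = 0.000436 by limma. Ephb3 had a log2 fold change of -3.62 (SE 0.80, adjusted p = 0.00411 by limma). Ephb2 fell to a group listed at 0 (adjusted p = 0.00101 by limma), so no fold is given. Epha4 and Efna5 fell as well, with log2 fold changes of -3.16 and -1.90 (adjusted p = 0.0372 and 0.0264 by limma). The Epha4 call was lost without Akt-MAC 2 or 3 or Akt-RACVEC 1 or 3, with a highest adjusted p = 0.131, and the Efna5 call without Akt-MAC 2 or Akt-RACVEC 2 or 3, with a highest adjusted p = 0.142 by limma. With only these groups in the fit the Ephb3, Epha4 and Efna5 calls were lost (adjusted p = 0.0559, 0.112 and 0.0786 by limma), and with a pseudocount of 0.1 those of Epha4 and Efna5. The Ets factors cannot be told apart from the conversion medium here, and the medium of the Akt-MACs is not given in the sources used here. Scaling by library medians shifts all genes by -0.12 here. Mesenchymal markers fell in this comparison, 4 of 8 called, with a median of -5.93, as did 4 of 6 macrophage and blood markers, and their part was not tested.

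**Figure D3:**
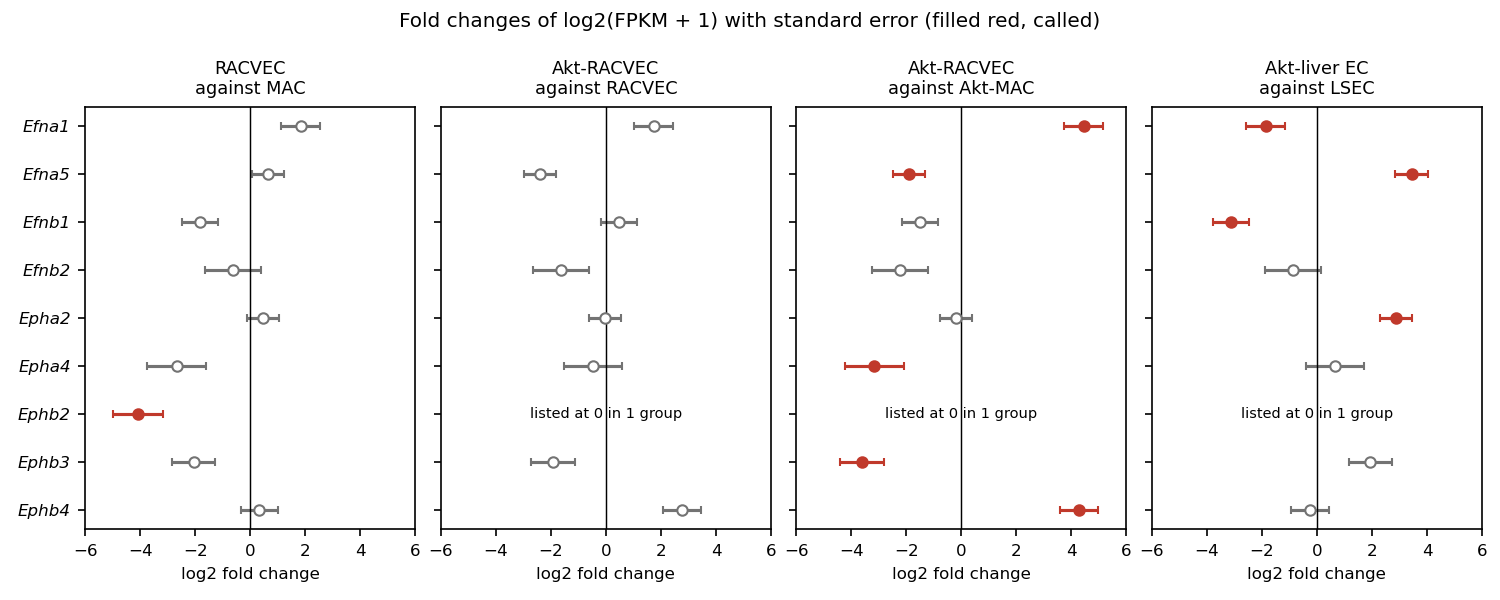
Log2 fold changes of log2(FPKM + 1) for the 9 tested genes in 4 comparisons, with the standard error as bars and filled red points for genes called with all libraries in the fit. In Akt-RACVECs against Akt-MACs, Efna1 (4.44) and Ephb4 (4.27) lie far to the right and Ephb3 (-3.62) to the left, and comparisons with a group listed at 0 carry words in place of a point.

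In the same comparison the 9 other tested family members gave 4 calls, all lower, beside 13.4% of all genes called lower. They were Epha7 (log2 fold change -3.72), Ephb6 (-3.46), Efna2 (-3.15) and 1 more gene, whose libraries overlapped. The median over the 9 was -1.48, beside -0.09 over all genes. Signalling partners were split, with 6 of 33 called higher and 6 lower, beside 6.15% and 13.4% of all genes. Arhgef15 rose by 6.81 and Chn1, a Rac GTPase-activating protein gene, by 3.16, while the phosphatase gene Ptpn13 had -4.35 and the exchange factor gene Kalrn -3.41 on the log2 scale. On the venous and lymphatic list 7 of 8 were called higher and of the arterial genes 5 of 11, beside 8 of 9 endothelial markers.

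Sox17 in converted cells was compared with the same RACVEC libraries as the 2 comparisons above that used them, so these share samples. Sox17 cannot be told apart here from its vector and the puromycin selection. In Sox17-RACVECs against RACVECs no member was called, beside 0.00668% of all genes. At an unadjusted p under 0.05 there were 3 of 9 members, beside 6.62% of all genes. Efna1 had a log2 fold change of 1.77 (SE 0.70, adjusted p = 0.642) and Ephb4 of 1.002 (SE 0.68, adjusted p = 0.857 by limma). Without the library labelled Sox17-RACVEC 2 they were 1.08 and 0.07, and the Efna5 value went from -1.41 to -0.72. Ephb3 was lower in every Sox17-RACVEC library, at -2.19 with all libraries and -1.71 without replicate 2, and neither passed. Efna5, Epha4 and Ephb3 were the members without overlap, 3 of 9, all lower, beside 6.55% of all genes in that direction and 10.6% in either. Without replicate 2 the Sox17-RACVEC mesenchymal sums, 1191 and 2329 FPKM, lay below the RACVEC sums of 2584 to 5113.

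Sox17-RACVECs against Akt-RACVECs gave no called member and no called gene at all by limma (0% of all genes), with 1 of 9 members and 7.67% of all genes at an unadjusted p under 0.05. Ephb4 had a log2 fold change of -1.77 (SE 0.68, adjusted p = 0.555 by limma). Without the library labelled Sox17-RACVEC 2 it was -2.70 (adjusted p = 0.0242 by limma), the 1 member called, and 2.27% of all genes were called. The mesenchymal sums of the 2 remaining Sox17-RACVECs were above those of all Akt-RACVECs, and their part was not tested. The Sox17 vector and the puromycin selection, named for Sox17-RACVECs only, cannot be told apart from the introduced genes here.

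Amniotic cells were then set against cultured adult endothelium, averaged over the lung and liver groups. Of 9 members 5 were called, beside 14.8% of all genes. The adult cells also carried Akt and were grown in the endothelial medium, which cannot be told apart from cell type. MACs had less Efna1 (log2 fold change -3.32, SE 0.61), Ephb4 (-2.18, SE 0.59) and Epha2 (-1.70, SE 0.51), with adjusted p = 0.00137, 0.0149 and 0.0257 by limma. They had more Ephb3 (2.90, SE 0.69) and Ephb2 (2.89, SE 0.79), with adjusted p = 0.00738 and 0.0157 by limma. The Epha2 libraries overlapped, and without MAC 2 its value was -1.05 (adjusted p = 0.174 by limma). The Epha2 call was also lost without MAC 3 or Akt-liver EC 3, the Ephb2 and Ephb3 calls without MAC 3, and the Ephb4 call without MAC 1 (adjusted p = 0.0569 by limma). Without MAC 3, 2 members were called, beside 11.6% of all genes. With only the compared groups in the fit, Efna1 was still called (adjusted p = 0.0241 by limma) and the calls of Ephb4, Epha2, Ephb3 and Ephb2 were lost (adjusted p = 0.0575, 0.0752, 0.0703 and 0.104 by limma). With Akt-LEC 1 and Akt-liver EC 1 left out, an alternative chosen after the data were seen, 7 members were called, beside 16.3% of all genes. Of the other family members 7 of 9 were called higher in MACs and 1, with overlapping libraries, was called lower. The leading ones were Ephb6 (5.19), Efna2 (3.72), Efna3 (3.14) and Epha7 (3.12), and the median over the 9 was 2.53, beside -0.03 over all genes. Mesenchymal markers were higher in MACs, 3 of 8 called, with a median of 4.37, and their part was not tested.

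Converted cells were then compared with cultured lung endothelium. RACVECs against Akt-LECs gave no called member, beside 0.261% of all genes, and 2 of 9 at an unadjusted p under 0.05, beside 1714 of 14964 genes. Every RACVEC library was below every Akt-LEC for Efnb2 (log2 fold change -1.33, SE 1.01) and Epha2 (-0.79, SE 0.59), with adjusted p = 0.667 and 0.66 by limma. With Efna5, higher in RACVECs, these were 3 of 9 members without overlap, beside 15.2% of all genes. Akt-RACVECs against the same Akt-LECs gave no called member, beside 0.00668% of all genes, and 1 of 9 at an unadjusted p under 0.05, beside 8.68%. That member was Efnb2, at -2.96 (SE 1.01, adjusted p = 0.366 by limma), and the value was -4.53 without Akt-RACVEC 2 and -1.51 without Akt-RACVEC 3. Epha2, at -0.83 (SE 0.59), was lower in every Akt-RACVEC library, 1 of 9 without overlap, beside 5.08% of all genes in that direction. A p that misses the threshold does not show that these groups had the same levels.

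The organ of origin was compared within cultured cells. Akt-LECs against Akt-liver ECs gave no called member, beside 0.0134% of all genes. Ephb2 alone had an unadjusted p under 0.05, beside 4.22% of all genes. Epha2, at -0.90 (SE 0.59, adjusted p = 1.0 by limma), was the 1 of 9 members lower in every Akt-LEC library, beside 4.41% of all genes.

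Cultured liver endothelium was set against liver endothelium taken straight from the animal. In Akt-liver ECs against LSECs, 5 of 9 members were called, beside 27.0% of all genes. Of the 4 ligands 3 were called, in both directions. Efna5 was higher in Akt-liver ECs (3.44, SE 0.59, adjusted p = 0.000206 by limma). Efnb1 was lower (-3.11, SE 0.66, adjusted p = 0.00139 by limma), as was Efna1 (-1.87, SE 0.70, adjusted p = 0.0474 by limma). The Efna1 call was lost without Akt-liver EC 1 (-1.44, adjusted p = 0.176 by limma), without Akt-liver EC 3 and without any 1 of the LSEC libraries, and also with a pseudocount of 0.1 or no filter on low values (adjusted p = 0.0536 and 0.0543 by limma). Of the receptors, 2 of 5 tested were called, both higher in Akt-liver ECs: Epha2 by 2.88 (SE 0.59, adjusted p = 0.00101 by limma) and Ephb2 against an LSEC group listed at 0 (adjusted p = 0.00881 by limma). Ephb3 had 1.95 (SE 0.80) and missed the threshold (adjusted p = 0.0661 by limma), though not with only these groups in the fit (adjusted p = 0.0218 by limma), while the Ephb4 libraries overlapped. All 8 hepatocyte markers and all 6 measured macrophage and blood markers were called higher in LSECs, and their part was not tested. Akt and culture were present in the Akt-liver ECs and absent from the LSECs, so they cannot be told apart.

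In the rest of the family, 3 of 9 genes were called, beside 27.0% of all genes. They were Efna3, Efna4 and Ephb1, all of them listed at 0 in the LSECs. Of the signalling partners 6 of 33 were called higher in Akt-liver ECs and 4 lower, beside 14.1% and 12.9% of all genes. Chn1, which acts in EphA4 signalling, the kinase gene Src and the adaptor gene Nck2 were among the higher ones (log2 fold changes of 4.81, 4.22 and 2.98). The Rac exchange factor gene Tiam1 was among the lower ones (-4.25).

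The arterial ligand and the venous receptor of the same pair were read as a ratio within each library, log2 of Efnb2 + 1 over Ephb4 + 1. It was -0.11, -1.41 and 0.36 in MACs and -0.06, 0.66 and 1.77 in Akt-MACs, near or above balance in all but 1 of these libraries. RACVECs had -1.30, -0.67 and -1.998, with all libraries below 0. Akt-RACVECs had -5.60, -2.33 and -9.21, a mean of -5.72 ± 3.44 (SD, n = 3), so that even the highest lay below the lowest RACVEC. Sox17-RACVECs had -2.71, -6.11 and -0.73, with the lowest value in the library labelled Sox17-RACVEC 2, and a mean of -1.72 without it. Akt-LECs had -0.67, -3.22 and -1.13, Akt-liver ECs -0.93, -3.36 and -5.06 and LSECs -2.65, -2.69 and -2.12. The spread in the LSECs, -2.49 ± 0.32, was the smallest of the 8 groups. No test is given for this ratio, since it is built from the members.

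**Figure D4:**
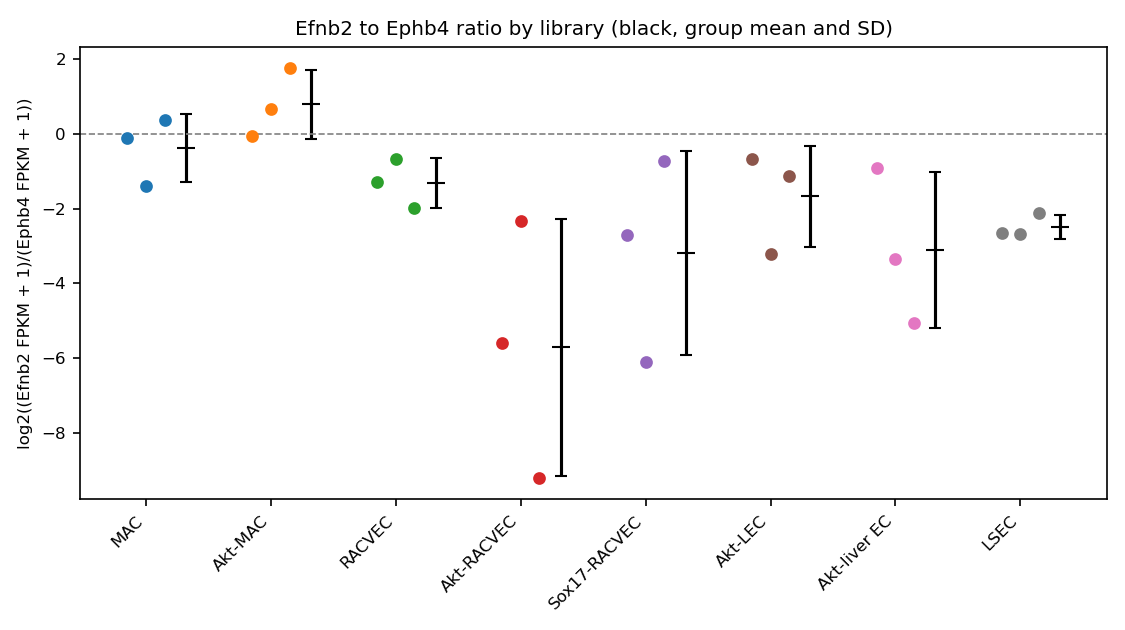
Log2 ratio of Efnb2 to Ephb4, each with 1 FPKM added, in the 3 libraries of each group (coloured points), with the group mean and SD in black and a dashed line at equal levels. Akt-RACVECs have the lowest mean (-5.72) and the widest spread (SD 3.44), while LSECs lie together between -2.69 and -2.12.

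Across the 24 libraries some members rose and fell together, which is a description over libraries that share groups. Ephb2 and Ephb3 had a Pearson correlation of 0.884 on log2(FPKM + 1), and Efna1 and Ephb4 of 0.797. Efna1 and Ephb3 had -0.869 and Ephb3 and Ephb4 -0.751. Efnb2 and Ephb4, the arterial and venous pair, had -0.279, and Efna1 and its receptor gene Epha2 had -0.0045. Against the summed mesenchymal markers the correlation was -0.840 for Ephb4 and 0.745 for Ephb3, and against the summed endothelial markers it was 0.821 and -0.841.

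**Figure D5:**
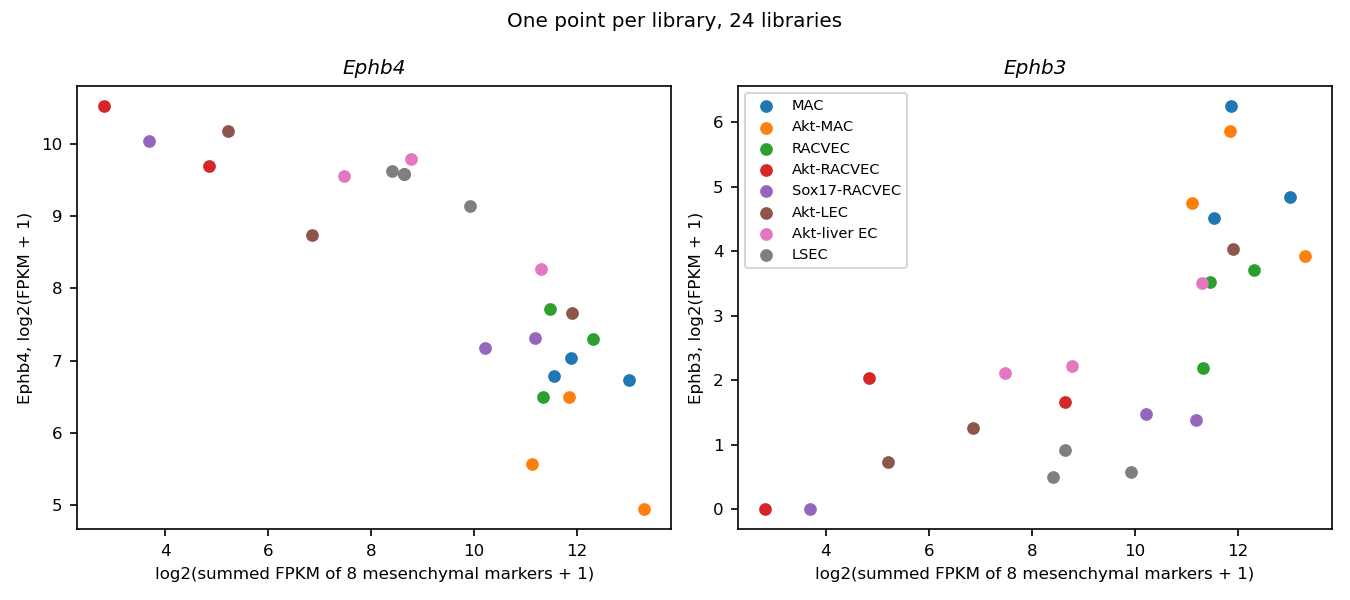
Level of Ephb4 (left) and Ephb3 (right), as log2(FPKM + 1), against the log2 summed FPKM of 8 mesenchymal markers, with 1 point for each of 24 libraries coloured by group. Across the libraries Ephb4 falls and Ephb3 rises with the markers (correlations of -0.840 and 0.745), with Sox17-RACVEC 1 and 3 low for Ephb3 (1.77 and 1.61 FPKM) at sums of 1191 and 2329, and single Akt-LEC and Akt-liver EC points lie away from their groups toward the MACs.

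The genes most like 4 of the members were taken among 11699 genes with a mean of at least 10 FPKM, by the same correlation over 24 libraries. Ephb4 was closest to Kank3 (0.927), Ramp2 (0.926), which encodes an adrenomedullin receptor partner, and Caskin2 (0.925). Efna1 was closest to Arhgef15 (0.932), Gimap5 (0.925) and the endothelial adhesion gene Icam2 (0.922). Efnb2 was closest to the matrix enzyme genes Mmp14 (0.777) and Loxl2 (0.774) and to Mfn1 (0.770). Epha2 was closest to Ccdc86 (0.882), Psmd5 (0.810) and Dhx38 (0.802), none of them an endothelial marker of the lists used here.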

How the data were processed

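RNA-seq was made from 24 libraries, 3 in each of 8 groups, on paired 51 bp reads. Per the labels and the study's methods, the authors aligned reads to mm9 with TopHat and estimated FPKM with Cufflinks, with upper-quartile normalization and bias correction, so the deposited FPKM values are already scaled between libraries and carry no read depth. The depth is therefore unknown, and no counting interval is given. Summed FPKM ranged from 1689486 to 2317294 per library.

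The 27583 RefSeq transcripts were summed to 22282 genes by current symbol. Of these transcripts 653 had no symbol, and each was kept as an entry of its own among the 22282. Values were tested as log2(FPKM + 1), for the 14964 genes whose mean FPKM reached 1, by limma 3.58.1 (R 4.3.3), as 1 fit over the 8 groups with a variance trend. P-values are two-sided with Benjamini-Hochberg adjustment over all genes tested. The pseudocount of 1 makes fold changes of low genes too small. The study describes MAC replicates as separately isolated cultures and its RNA-seq samples as individual isolates. Whether isolates of adult cells came from different animals is not given in the sources used here.

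All 10 members are named. From each other list up to 4 called genes per comparison are named, by largest fold change without overlap, and the 3 most correlated genes for each of 4 members. The members and lists were chosen with earlier results of these data known. Gene positions came from GENCODE on mm9, and promoters from RefSeq sequences (GRCm38.p6) placed on mm9 by exact match. Alternatives were pseudocounts of 0.1 and 10, other filters and scaling, the compared groups alone, a replicate block and leaving out libraries. Python 3.11.15, numpy 2.4.6, pandas 2.3.3 and matplotlib 3.10.9 were used.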

Additional observations from a re-analysis of the deposited data

Results flagged for a closer look

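For Ephb4 every Akt-MAC library was below every MAC library, and every Akt-RACVEC library was above every RACVEC library. Neither difference passed the test, at log2 fold changes of -1.18 (adjusted p = 0.489) and 2.77 (adjusted p = 0.0643 by limma). Macrophage and blood markers summed to at most 14.7 FPKM in MACs and to 782 to 26768 in Akt-MACs, the mesenchymal markers had a median log2 fold change of -5.53 in Akt-RACVECs against RACVECs, and their part was not tested. The difference between the Akt-RACVEC and Akt-MAC values was 3.95 on the log2 scale and did not pass the test (adjusted p = 0.102 by limma). It passed with the library labelled Sox17-RACVEC 2 left out of the fit (adjusted p = 0.0262 by limma) and without Akt-MAC 1 (adjusted p = 0.0211 by limma). Of all genes 0.368% and 2.94% were then called for this difference, beside 0.1% with all libraries. Akt-MAC 1 had the lowest macrophage and blood sum of the Akt-MACs (782 FPKM) and their highest Ephb4 (89.4 FPKM). Without any other single library of these groups the adjusted p did not pass, with a highest value of 0.203 by limma.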

How the results depend on the processing

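Counts of called members (of 9) are given for limma with Benjamini-Hochberg adjustment. With a pseudocount of 0.1, or with only the compared groups in the fit, RACVECs against MACs went from 1 to 0. Of all genes 2.63% and 0.274% were then called, beside 2.71% in the main fit. Fits of only the compared groups gave 3 in place of 6 for Akt-RACVECs against Akt-MACs and 1 in place of 5 for MACs against cultured ECs. The shares of all genes called fell from 19.5% to 6.77% and from 14.8% to 7.16%. A pseudocount of 10 gave 1 in place of 0 for Akt-RACVECs against RACVECs, beside 0.615% of all genes. Leaving out the library labelled Sox17-RACVEC 2, chosen after the data were seen, gave 2 there and 1 in place of 0 for the difference of the Akt effects. Of all genes 2.45% and 0.368% were then called. Leaving out single libraries gave 0 to 1 for RACVECs against MACs (0 without MAC 3 or RACVEC 3, with 1.94% and 1.59% of all genes called). It gave 4 to 6 for Akt-RACVECs against Akt-MACs (11% to 16.8% of all genes) and 4 to 5 for Akt-liver ECs against LSECs (22.7% to 25.8%). For Sox17-RACVECs against Akt-RACVECs it gave 0 to 1 (1 without Sox17-RACVEC 2, with 2.27% of all genes). For MACs against cultured ECs it gave 2 to 6 (2 without MAC 3, with 11.6%). For the difference of the Akt effects it gave 0 to 1 (1 without Akt-MAC 1, with 2.94%). No pairing by replicate number was used in the main fit, since none of the pairs of groups compared had every correlation of same-numbered deviations over 0.1. With 3 libraries a group this check cannot show that samples were unpaired. Akt-LECs and Akt-liver ECs, for one, had 0.57, 0.37 and -0.05. A replicate block with only the compared groups gave 0 for RACVECs against MACs, 0 for Akt-RACVECs against Akt-MACs and 0 for MACs against cultured ECs. Of all genes 0%, 0% and 5.35% were called there. For RACVECs against MACs and Akt-RACVECs against Akt-MACs no gene was called, so that loss was not particular to the members. For MACs against cultured ECs 800 of 14964 genes were still called, beside 0 members. A replicate block over all groups gave 1, 6 and 5, beside 2.67%, 19.5% and 14.9% of all genes. Apart from fewer samples in the fits of only the compared groups, the cause was not tested. The other 189 counts stayed within 1.5 times the main one, and no fold change reversed. A median scaling shifts all genes by 0.14 in Akt-MACs against MACs, -0.12 in Akt-RACVECs against Akt-MACs and -0.17 in the difference of the Akt effects. FPKM hold no depth, so a value listed at 0 has no upper limit here.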
